A study of Sus scrofa with 7 samples.

Results

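The balance between epithelial and mesenchymal regulators was examined in porcine extra-embryonic endoderm (pXEN) cells and in porcine naïve-like and primed embryonic stem cells (nESCs and pESCs). The genes were chosen by name: the mesenchymal transcription factors SNAI1, SNAI2, ZEB1, ZEB2 and TWIST1, the filament gene VIM, the epithelial splicing factors ESRP1 and ESRP2, and the epithelial transcription factors OVOL2 and GRHL2. Of these 10 genes, 7 had a row under their symbol among the 29510 genes of the count and FPKM tables. SNAI1, ESRP2 and OVOL2 had none and were not analysed here. Of the 7, VIM, ZEB1, ZEB2, TWIST1 and ESRP1 were among the 17447 genes tested, whereas SNAI2 and GRHL2 had too few reads to pass the filter on low counts.

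Epithelial cells are held together by E-cadherin, tight junctions and desmosomes, and they lose these contacts when they turn into migratory mesenchymal cells, the epithelial-mesenchymal transition (EMT). SNAIL, ZEB and TWIST proteins are transcription factors that repress epithelial genes such as CDH1, and vimentin, the product of VIM, is the intermediate filament protein of mesenchymal cells. ESRP1 and ESRP2 bind RNA and set the epithelial splice forms of many transcripts, while OVOL2 and GRHL2 activate epithelial genes and restrain ZEB1. In the embryo, the primitive endoderm forms an epithelium on the blastocoel and gives rise to visceral endoderm, which stays epithelial, and to parietal endoderm, which migrates and expresses vimentin.

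RNA was sequenced from 3 pXEN lines, 2 nESC lines and 2 pESC lines, with 1 library per line, so that each line counted as 1 replicate. The pXEN lines came from inner cell masses of parthenogenetic pig blastocysts and grew on mouse embryonic fibroblasts in LCDM medium, which holds human LIF, the GSK3 inhibitor CHIR99021, (S)-(+)-dimethindene maleate, minocycline hydrochloride and the ROCK inhibitor Y27632, with FBS and KSR. They were harvested at passages 26, 26 and 23. The nESCs grew on mouse embryonic fibroblasts in LBX medium with FGF, human LIF, the MEK inhibitor PD0325901, CHIR99021, the TGFβ receptor inhibitor SB431542 and doxycycline, and were at passages 21 and 22. The pESCs, labelled as converted from naïve-like cells, grew on STO cells, a mouse fibroblast line, with activin A, bFGF, EGF and human LIF, and were both at passage 20. All cell types thus received human LIF and mouse feeders, and cell type and medium cannot be told apart. A p-value here measures the spread among these lines, since every line was sequenced in 1 library.

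The libraries held 10408164 to 12995720 reads assigned to genes, and a floor of 3 counts, which covers counting error only, corresponded to 0.231 to 0.288 CPM, counts scaled to the total of each library. All 10 endoderm markers examined were called higher by edgeR in pXEN cells than in nESCs and in pESCs, beside 28.3% and 23.9% of all genes tested. Their summed levels were 13044 to 15348 CPM in pXEN libraries against 106 to 1283 CPM in the ESC libraries. SOX2, a pluripotency factor, was at 0 in pXEN lines 1 and 3 and at 30 counts in line 2. It had 1633 to 2729 counts in the ESC lines, whereas POU5F1 had no more than 5 in any library. Against nESCs, 5 of 8 tested pluripotency markers rose in pXEN cells by edgeR: NANOG, UTF1, LIN28A, SALL4 and DPPA5. The 3 lower ones were SOX2, ESRRB and GBX2. Against pESCs, UTF1 was lower too, and the other 4 remained higher. NANOG, named after its values were seen, had 177, 60 and 166 counts in pXEN lines. Its counts were 0 and 2 in nESC lines and 21 and 22 in pESC lines. The library of pXEN line 2 stood apart through fibroblast genes. Of the 20 fibroblast markers listed, 19 were in the tables and 16 exceeded the floor in a pXEN library, of which 13 were highest in line 2, beside 37.1% of all 18459 genes above that floor. The edgeR fits were therefore also made without line 2.

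The pXEN lines combined a high level of ESRP1 with very low levels of ZEB1, ZEB2 and TWIST1 and with less VIM than any ESC line. The nESCs showed the opposite pattern, with ZEB1, ZEB2, TWIST1 and VIM high and ESRP1 at the limit of detection. The pESC libraries held ESRP1 near the pXEN level together with ZEB1, TWIST1 and VIM near the nESC level, and less ZEB2 than the nESC libraries. Of the genes chosen by name, ESRP1 was the only epithelial regulator tested. With edgeR's quasi-likelihood test and Benjamini-Hochberg adjustment over all genes tested, 4 of the 5 tested genes were lower and 1 was higher in pXEN cells than in nESCs, beside 26.2% of all genes lower and 28.3% higher. Against pESCs the calls were again 4 lower and 1 higher, beside 24.4% of all genes lower and 23.9% higher. Both comparisons share the pXEN libraries. All 10 of these calls kept their direction and side of the threshold without pXEN line 2. In bulk RNA, fewer cells expressing a gene and less RNA per cell cannot be told apart. Nor can cells holding both ESRP1 and ZEB1 be told from a mixture of cells holding either.

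**Figure D1:**
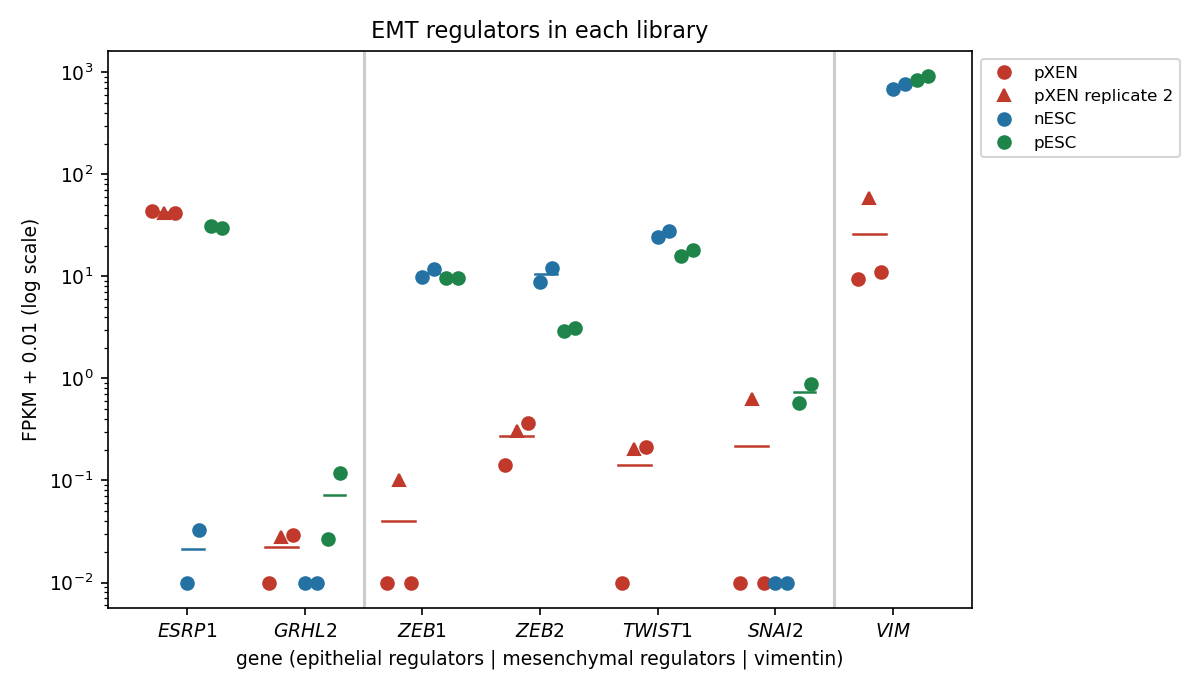
FPKM of the 7 genes in each of the 7 libraries, on a log axis after adding 0.01 so that values of 0 can be drawn at the bottom; points are libraries, triangles mark pXEN line 2 and bars are group means. ESRP1 lies between 42.1 and 43.7 FPKM in pXEN lines and at 0 and 0.0228 in nESC lines, while ZEB1, ZEB2, TWIST1 and VIM of every pXEN line lie below all ESC lines.

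ESRP1 (chromosome 4, 45307108 to 45373726, minus strand, in the Sscrofa10.2 coordinates of the authors' tables) encodes the splicing factor that marks epithelial cells. It had 1613, 1813 and 1732 counts in pXEN lines 1 to 3, 0 and 1 in the nESC lines, and 1460 and 1493 in the pESC lines. The nESC lines were thus at or below the floor, whereas every pXEN and pESC line held at least 1460 reads, and no groups overlapped. In FPKM, which scales by gene length, ESRP1 was at 42.6 ± 0.956 (SD, n = 3) in pXEN lines and 30.2 ± 0.929 (SD, n = 2) in pESC lines. By counts scaled to library sizes adjusted with edgeR's TMM factors, the pXEN level was 3784 times the nESC level (adjusted p = 3.22e-07, edgeR). The 95% exact counting interval ran from 679 to 149488, since the nESC lines gave only 1 read together. The pESC level was 2669 times the nESC level (counting interval 479 to 105471, adjusted p = 1.27e-06, edgeR). These intervals cover counting error only.

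The difference in ESRP1 between pXEN cells and pESCs was much smaller. The log2 fold change was 0.50 (SE 0.12, adjusted p = 0.0108, edgeR), or a count ratio of 1.42 with a counting interval from 1.35 to 1.48, and all 3 pXEN lines lay above both pESC lines. This call rested on both pESC libraries, as the adjusted p became 0.0774 without pESC line 1 and 0.110 without pESC line 2, while the log2 fold change stayed at 0.53 and 0.46. Line 2 of the pXEN cells held as much ESRP1 as lines 1 and 3, with a ratio of 0.992 (counting interval 0.936 to 1.05).

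GRHL2, a grainyhead factor that activates junction genes in many epithelia, was almost silent in all cell types. Its counts were 0, 1 and 1 in pXEN lines, 0 and 0 in nESC lines, and 1 and 7 in pESC lines, which is 0.109 FPKM at most. Only pESC line 2 exceeded the floor, and in a fit without the filter on low counts GRHL2 was not called in any comparison (adjusted p of 0.159 to 0.388, edgeR). GRHL2 lies on chromosome 4 (38266585 to 38413078, minus strand) and is the only one of the 7 genes that overlaps another listed gene, a U6 entry on the plus strand with 0 counts. The high ESRP1 of pXEN cells and pESCs was therefore measured in libraries where GRHL2 was at most near the floor.

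ZEB1, a zinc finger repressor of CDH1 and of epithelial microRNAs, was nearly undetected in pXEN cells. Its counts were 0, 2 and 0 in pXEN lines, 228 and 263 in nESC lines and 235 and 252 in pESC lines. The 2 reads of pXEN line 2 were the only ZEB1 reads among the pXEN libraries, and both ESC types lay at nearly the same level, 10.7 ± 1.36 FPKM (SD, n = 2) in nESCs and 9.69 ± 0.0276 FPKM (SD, n = 2) in pESCs. By counts scaled to TMM-adjusted library sizes, ZEB1 was 335 times as high in nESCs as in pXEN cells (counting interval 92.1 to 2771, adjusted p = 8.75e-06, edgeR). The ratio of pESCs to pXEN cells was 300.0 (counting interval 82.6 to 2485, adjusted p = 1.63e-05, edgeR). Without line 2, where pXEN cells had 0 counts, ZEB1 was at least 144-fold lower than in nESCs and at least 129-fold lower than in pESCs, against a floor of 3 counts over the group.

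ZEB2, the paralog of ZEB1 with the same kind of repressor activity, remained detectable in all pXEN lines. Its counts were 5, 13 and 15 in pXEN lines, 411 and 538 in nESC lines and 141 and 161 in pESC lines, so the 3 groups did not overlap and ranked nESC, pESC, pXEN. The mean levels were 10.5 ± 2.25 FPKM (SD, n = 2) in nESCs, 3.03 ± 0.143 (SD, n = 2) in pESCs and 0.263 ± 0.116 (SD, n = 3) in pXEN cells. The log2 fold change of pXEN cells was −5.29 (SE 0.32, adjusted p = 7.25e-06, edgeR) against nESCs and −3.49 (SE 0.32, adjusted p = 9.03e-05, edgeR) against pESCs. These values were −5.38 and −3.58 without pXEN line 2. ZEB1 lies on chromosome 10 (46547260 to 46794724, plus strand) and ZEB2 on chromosome 15 (7946301 to 7980509, minus strand).

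TWIST1, a basic helix-loop-helix factor of mesoderm and neural crest, followed ZEB1. Its counts were 0, 1 and 1 in pXEN lines, 133 and 149 in nESC lines and 91 and 112 in pESC lines. No pXEN line exceeded the floor and every ESC line did. TWIST1 was 192 times as high in nESCs (counting interval 52.7 to 1595, adjusted p = 1.1e-05, edgeR) and 125 times as high in pESCs (counting interval 34.2 to 1040, adjusted p = 2.95e-05, edgeR). Its gene model on chromosome 9 (97328124 to 97329026, minus strand) counts only 453 of the 903 bases it spans, so its FPKM depends on a short model.

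SNAI2, which encodes SLUG, a repressor active in neural crest and migrating mesoderm, gave few reads everywhere. The counts were 0, 6 and 0 in pXEN lines, 0 and 0 in nESC lines and 6 and 10 in pESC lines. The reads of pXEN cells were thus confined to line 2, the line with high fibroblast markers, at 0.616 FPKM, against 0.562 and 0.876 FPKM in pESC lines. By counts scaled to TMM-adjusted library sizes, pESCs were at least 4.82-fold above nESCs, against 3 counts over both nESC libraries. In a fit without the filter on low counts, however, SNAI2 was not called there (adjusted p = 0.109, edgeR) or in the pXEN comparisons (adjusted p = 0.215 and 0.389, edgeR). A further unnamed entry described as SNAI2, on an unplaced scaffold, had 0 counts, so the value of the row on chromosome 4 (86680287 to 86682763, plus strand) is uncertain where reads fit both copies.

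VIM (chromosome 10, 48227005 to 48235670, plus strand) was among the abundant transcripts of both ESC types and was low in pXEN cells. Its counts were 172, 1259 and 225 in pXEN lines, 15490 and 16825 in nESC lines and 19709 and 23139 in pESC lines. All pXEN lines were below all ESC lines, and pXEN line 2 was above the other pXEN lines by a ratio of 5.80 (counting interval 5.18 to 6.51). The mean level was 728 ± 61.7 FPKM (SD, n = 2) in nESCs and 878 ± 58.7 (SD, n = 2) in pESCs. It was 26.3 ± 28.0 FPKM (SD, n = 3) in pXEN cells with 9.36 FPKM in line 1 and 58.6 in line 2. The log2 fold change of pXEN cells against nESCs was −4.78 (SE 0.73, adjusted p = 0.000923, edgeR), and without line 2 it was −6.17 (SE 0.13, adjusted p = 1.05e-08, edgeR). Against pESCs it was −5.04 (SE 0.74, adjusted p = 0.000929, edgeR), and −6.42 without line 2 (SE 0.13, adjusted p = 2.11e-08, edgeR).

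The raised VIM of pXEN line 2 came with fibroblast genes. COL3A1, a fibrillar collagen of connective tissue, had 20, 4251 and 203 counts in pXEN lines 1 to 3, and COL1A2 had 13, 1237 and 27. DPT was at 0 in every library, and the 19 markers summed to 1388 to 1891 CPM in pXEN cells, 85.5 to 111 in nESCs and 531 to 590 in pESCs. In the pXEN lines, most of this sum was FBLN1 and FBLN2. Without these 2 fibulins, a choice made after their values were seen, the remaining 17 markers summed to 21.5, 546 and 40.4 CPM in pXEN lines, 77.4 and 100.2 in nESC lines and 292 and 332 in pESC lines. The sum in nESC lines, which had high VIM, lay above that of pXEN lines 1 and 3 and below that of pXEN line 2 and the pESC lines. Its markers differed among themselves in nESC lines, with DCN, LUM, FAP, MEOX1 and DPT at 0 in both, COL1A2 at 381 and 342 counts, and FBN1 at 443 and 669 counts. The part of such cells in the VIM value of pXEN line 2 was not tested. Genes listed on chromosome Y, which parthenogenetic embryos lack, had 1, 38 and 3 counts in pXEN lines, 11 and 4 in nESC lines and 0 and 1 in pESC lines.

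**Figure D2:**
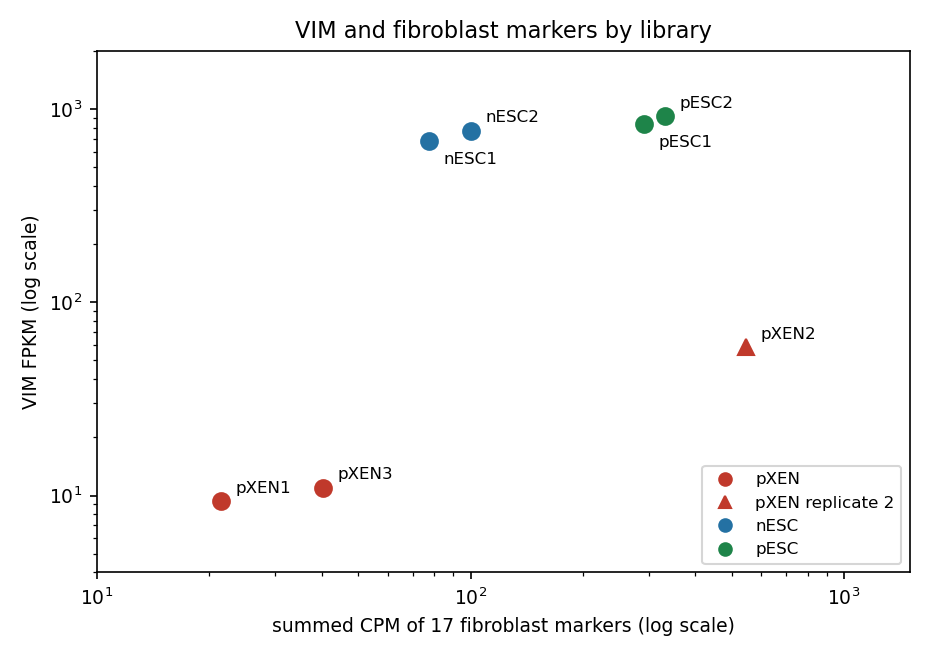
VIM level (FPKM, log axis) against the summed CPM of 17 fibroblast markers (log axis), 1 point per library. Line 2 of the pXEN cells, the triangle, has the highest marker sum, 546 CPM, at 58.6 FPKM of VIM, whereas nESC lines reach 684 and 771 FPKM of VIM with marker sums of 77.4 and 100.2 CPM.

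Within a library, the summed FPKM of ESRP1 and GRHL2 can be set against that of ZEB1, ZEB2, TWIST1 and SNAI2 without any scaling between libraries. The epithelial sum was nearly all ESRP1, since GRHL2 reached 0.109 FPKM at most. The epithelial share of this total was 99.7%, 97.2% and 98.7% in pXEN lines 1 to 3, 0% and 0.0440% in nESC lines, and 51.5% and 48.1% in pESC lines. The 3 cell types did not overlap, and pXEN line 2 had the lowest share of the pXEN lines. The mesenchymal sum was 0.133, 1.19 and 0.559 FPKM in pXEN lines, 42.8 and 51.9 in nESC lines and 29.1 and 32.0 in pESC lines. By counts in place of FPKM, the mean epithelial share of pESCs was 74.6% instead of 49.8%, because the ESRP1 model is longer than those of ZEB1 and TWIST1. The balance in pESCs therefore depends on the unit, while pXEN cells and nESCs stayed at either end.

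**Figure D3:**
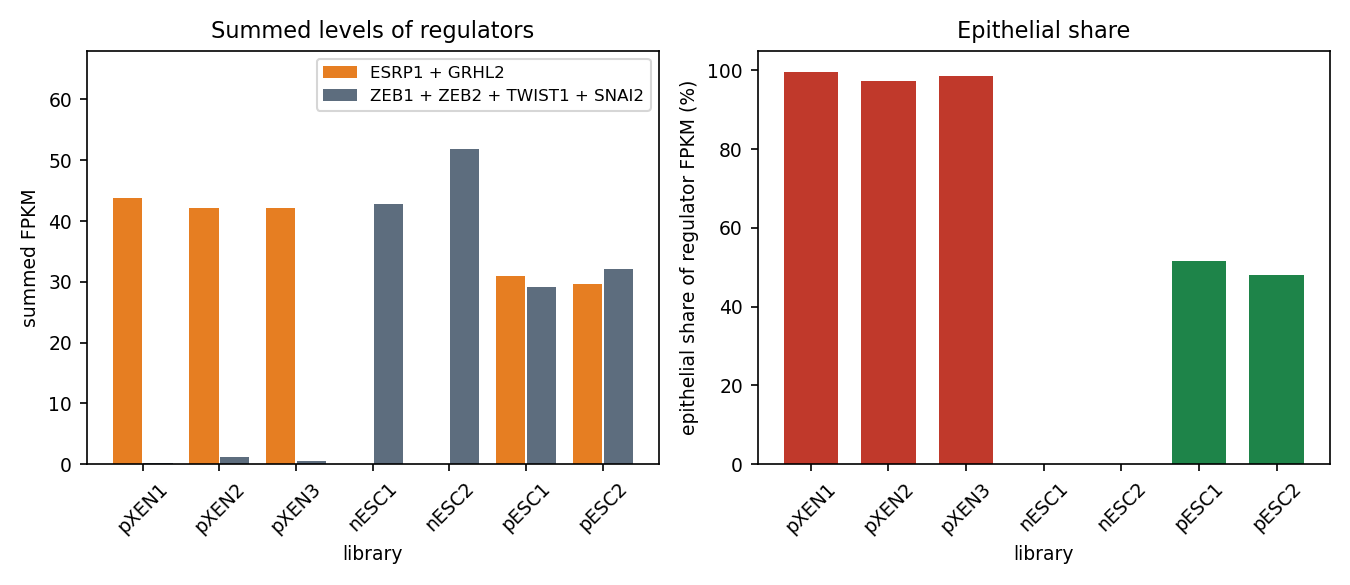
Left, summed FPKM of the epithelial (ESRP1, GRHL2) and mesenchymal (ZEB1, ZEB2, TWIST1, SNAI2) regulators in each library; right, the epithelial share of their total in percent. The share is at least 97.2% in pXEN lines, at most 0.0440% in nESC lines and 51.5% and 48.1% in pESC lines.

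Vimentin and ESRP1 gave the same order. The ratio of VIM to ESRP1 in FPKM was 0.214, 1.39 and 0.261 in pXEN lines and 27.1 and 31.1 in pESC lines, and in nESCs it had no stable value because ESRP1 was at the floor. VIM exceeded ESRP1 in pXEN line 2 and was below it in pXEN lines 1 and 3. The proportion of the ZEB paralogs also differed between ESC types: ZEB1 over ZEB2 was 1.10 and 0.968 in nESC lines and 3.30 and 3.10 in pESC lines by FPKM. These ratios use listed lengths of 1924 bases for ZEB1 and 3809 for ZEB2, and by counts ZEB2 exceeded ZEB1 in nESCs, so the order of both genes within nESCs depends on the gene models.

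Primed and naïve-like ESCs were compared next. Of the 5 tested, ESRP1 was higher in pESCs and ZEB2 lower, beside 19.0% of all genes higher and 13.3% lower, and 3 were not called. The log2 fold change of ZEB2 in pESCs against nESCs was −1.80 (SE 0.29, adjusted p = 0.00282, edgeR). For ZEB1 it was −0.16 (SE 0.32, adjusted p = 0.748, edgeR) and for VIM 0.26 (SE 0.74, adjusted p = 0.827, edgeR). The spread of VIM in this fit includes pXEN line 2, and without that library the value was 0.26 (SE 0.10, adjusted p = 0.0577, edgeR), with 684 and 771 FPKM in nESC lines against 837 and 920 in pESC lines. TWIST1 was at −0.62 (SE 0.34, adjusted p = 0.196, edgeR), with 24.2 and 28.1 FPKM in nESC lines against 15.9 and 18.3 in pESC lines.

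Genes of epithelial junctions and filaments, many of them targets of these repressors, were higher in the cells with high ESRP1. In a list of 40 epithelial genes, of which 34 were tested, 32 were higher and 0 lower in pXEN cells than in nESCs, and SPINT2 and MAL2 were not called. Against pESCs, 27 were higher, 0 lower and 7 not called, and 25 were higher in pESCs than in nESCs. These are 94.1%, 79.4% and 73.5% of the genes tested, beside 28.3%, 23.9% and 19.0% of all genes. The median log2 fold changes were 5.84, 1.95 and 3.15 in these comparisons, against 0, −0.01 and 0.01 for all genes tested, and setting the genes without any read in a group at their bound lowered the last one to 2.69. Leaving out pXEN line 2 gave 32 higher and 1 lower against nESCs and 28 and 1 against pESCs. The lower gene was MAL2, with 5, 87 and 6 counts in pXEN lines, 17 and 15 in nESC lines and 86 and 92 in pESC lines.

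The keratins KRT8 and KRT18, the filament proteins of simple epithelia, were the most abundant genes of the list. KRT8 stood at 6963 to 9098 FPKM in pXEN lines, 5.30 and 18.8 in nESC lines, and 1892 and 2239 in pESC lines, a log2 fold change of pXEN cells over pESCs of 1.95 (SE 0.42, adjusted p = 0.00609, edgeR). KRT19 had 9999, 20037 and 9140 counts in pXEN lines, 0 in both nESC lines, and 2644 and 3261 in pESC lines, at least 8389-fold above nESCs in pXEN cells. It was highest in pXEN line 2. DSP, the desmoplakin that anchors keratins to desmosomes, had 11571, 11772 and 12619 counts in pXEN lines, 4 and 4 in nESC lines, and 2454 and 2153 in pESC lines. Its log2 fold change was 11.65 (SE 0.23) against nESCs and 2.66 (SE 0.13) against pESCs.

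CDH1, EPCAM and JUP lie outside the rule by which genes were named and were chosen after their values were seen. CDH1, which encodes E-cadherin, had 1144, 1610 and 1387 counts in pXEN lines, 11 and 16 in nESC lines, and 952 and 959 in pESC lines. All pXEN lines exceeded all pESC lines, with a log2 fold change of 0.81 (SE 0.14, adjusted p = 0.00182, edgeR), and 6.79 (SE 0.21, adjusted p = 4.75e-07, edgeR) over nESCs. EPCAM, an adhesion protein of epithelia, had 7684, 8699 and 8543 counts in pXEN lines, 15 and 7 in nESC lines, and 611 and 637 in pESC lines. JUP, the plakoglobin of desmosomes and adherens junctions, was at 112 to 129 FPKM in pXEN lines and 125 and 122 FPKM in pESC lines, with a log2 fold change of 0.00 (SE 0.25, adjusted p = 0.998, edgeR). In nESC lines JUP was at 1.53 and 3.58 FPKM.

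**Figure D4:**
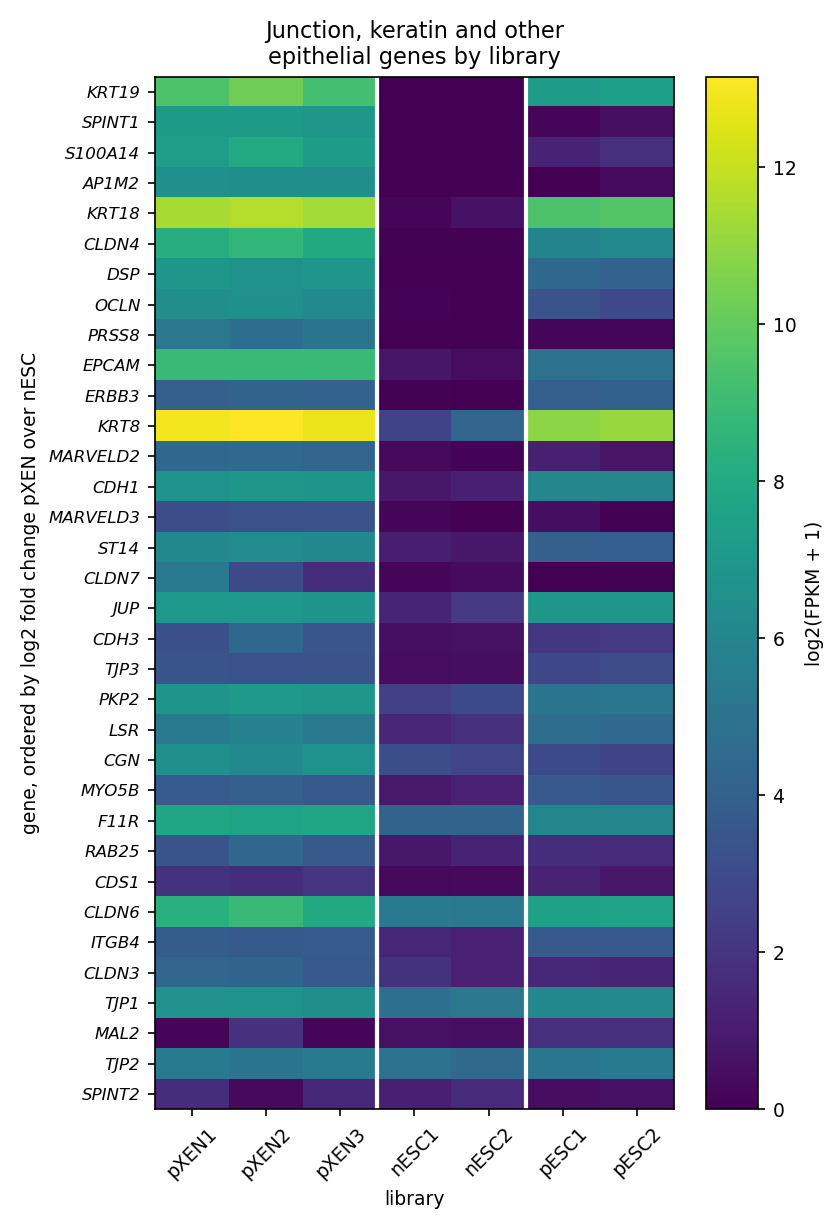
log2(FPKM + 1) of the 34 tested epithelial genes (rows, ordered by the log2 fold change of pXEN cells over nESCs) in the 7 libraries (columns, with white lines between cell types). The nESC columns are dark for most genes, the pXEN columns are bright, and the pESC columns lie between for many genes, as for KRT8 at 6963 to 9098, 5.30 to 18.8 and 1892 to 2239 FPKM.

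Some genes of the list marked a difference between pXEN cells and pESCs. SPINT1, an inhibitor of epithelial serine proteases, had 3534, 4117 and 3474 counts in pXEN lines, 0 in both nESC lines, and 5 and 15 in pESC lines. It was at least 2382-fold above nESCs, and its log2 fold change against pESCs was 8.80. AP1M2, the epithelial form of an adaptor subunit in basolateral sorting, had 922, 1069 and 1001 counts in pXEN lines, 0 in both nESC lines, and 0 and 4 in pESC lines. S100A14 showed the same order, with 1943, 3594 and 1964 counts in pXEN lines, 0 in both nESC lines, and 21 and 41 in pESC lines. CLDN7, a tight junction claudin, varied strongly among the pXEN lines, with 508, 98 and 33 counts, and was at 2 and 5 in nESC lines and 0 and 1 in pESC lines.

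Most of the other epithelial transcription factors tested were called higher in pXEN cells. Of 16 listed and 13 tested, 9 were higher and 2 lower against nESCs, 9 higher and 3 lower against pESCs, and 7 were higher and 1 lower in pESCs against nESCs. In pESCs against nESCs, these are 53.8% higher and 7.69% lower, beside 19.0% and 13.3% of all genes. The higher share in both pXEN comparisons was 69.2%, beside 28.3% and 23.9% of all genes, while the 15.4% lower against nESCs stood beside 26.2% and the 23.1% lower against pESCs near the 24.4% of all genes. The higher genes included the endoderm factors HNF4A, FOXA1 and FOXA2, of which HNF4A had 12902, 11514 and 13964 counts in pXEN lines, 0 and 1 in nESC lines, and 13 and 9 in pESC lines. FOXA1, a pioneer factor of endoderm, was at 253, 212 and 235 FPKM in pXEN lines, 12.8 and 14.1 in nESC lines, and 49.5 and 47.2 in pESC lines. TFAP2C, a factor of trophectoderm and surface ectoderm, went the other way, with 0 counts in all pXEN lines, 17 and 18 in nESC lines, and 1553 and 1519 in pESC lines, at least 1423-fold lower in pXEN cells than in pESCs.

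OVOL1 and GRHL1, the relatives of OVOL2 and GRHL2, were chosen after their values were seen. OVOL1, a zinc finger factor of epithelia, had 641, 724 and 509 counts in pXEN lines, 2 and 7 in nESC lines, and 154 and 125 in pESC lines. The groups did not overlap, and the log2 fold change was 7.22 (SE 0.40, adjusted p = 5.22e-06, edgeR) against nESCs and 2.44 (SE 0.27, adjusted p = 0.000205, edgeR) against pESCs. GRHL1 was low and ran opposite to OVOL1, with 3, 2 and 2 counts in pXEN lines, 44 and 15 in nESC lines, and 27 and 27 in pESC lines (adjusted p = 0.00215 and 0.00391, edgeR). GRHL3 was not called in any of the 3 comparisons.

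Other factors tied to EMT were called in both directions. Of 20 listed and 14 tested, 6 were higher and 6 lower in pXEN cells than in nESCs, 3 higher and 7 lower than in pESCs, and 5 higher and 2 lower in pESCs than in nESCs, or 9 and 3 without pXEN line 2. With all libraries, 35.7% were higher and 14.3% lower in pESCs than in nESCs, beside 19.0% and 13.3% of all genes. In pXEN cells against nESCs, 42.9% were higher and 42.9% lower, beside 28.3% and 26.2% of all genes. Against pESCs, 21.4% were higher and 7 of 14 lower, beside 23.9% and 24.4%, where the median log2 fold change of the list was −0.60. Against nESCs the median was 0.76. The lower genes included HMGA2, a chromatin protein of early embryos, with 21.7, 11.4 and 25.0 FPKM in pXEN lines, 95.2 and 133 in nESC lines, and 195 and 212 in pESC lines. LEF1, a nuclear partner of β-catenin, fell by 2.74 on the log2 scale against nESCs (SE 0.40) and by 3.63 against pESCs (SE 0.39). SOX4, a factor that can promote EMT, was higher, with 1910, 3780 and 2186 counts in pXEN lines, 949 and 1150 in nESC lines, and 622 and 733 in pESC lines. ID1, an inhibitor of helix-loop-helix factors such as TWIST1 and TCF3, rose by a log2 fold change of 2.79 (SE 0.16) against nESCs and 0.86 (SE 0.15) against pESCs. Its partner TCF3 was not called in any comparison of all 7 libraries, but without pXEN line 2 it was called higher than in nESCs in pXEN cells (0.35, adjusted p = 0.0068, edgeR) and in pESCs (0.31, adjusted p = 0.0171, edgeR). TCF12 fell by 1.03 and 0.63.

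PRRX2, a homeobox factor of mesenchyme, separated pESCs, with 352 and 443 counts there, 0 and 1 in nESC lines, and 0, 44 and 2 in pXEN lines. Among the pXEN lines it was high only in line 2, as were the fibroblast collagens. Its log2 fold change of pXEN cells against pESCs was −4.44 (SE 1.00, adjusted p = 0.0073, edgeR), and −8.15 without line 2. PRRX1 and TWIST2 stand in this list and in that of fibroblast markers.

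Because ESRP1 acts on splicing, genes whose transcripts it is known to splice and other splicing factors linked to EMT were read at the gene level, which does not show isoforms. Of 18 tested genes spliced by ESRPs, 9 were higher and 2 lower in pXEN cells than in nESCs, 8 higher and 2 lower than in pESCs, and 6 higher and 1 lower in pESCs than in nESCs. The median log2 fold changes were 0.43, 0.21 and 0.21, and without pXEN line 2 the lower genes in pESCs against nESCs were 2. The higher genes were 9 of 18 against nESCs, 44.4% against pESCs and 33.3% in pESCs against nESCs, beside 28.3%, 23.9% and 19.0% of all genes. The lower genes were 11.1%, 11.1% and 5.56%, beside 26.2%, 24.4% and 13.3%. CTNND1, the p120 catenin that stabilises cadherins, was at 89.0, 89.6 and 89.0 FPKM in pXEN lines, 18.4 and 23.4 in nESC lines, and 47.7 and 45.9 in pESC lines. OSBPL3, an oxysterol-binding protein, had 1080, 1256 and 1292 counts in pXEN lines, 13 and 23 in nESC lines, and 50 and 65 in pESC lines. CD44, a hyaluronan receptor with many splice forms, was highest in pESCs, with 454 and 736 counts there, 97 and 50 in nESC lines, and 72, 186 and 61 in pXEN lines. FGFR2, named after its values were seen because its exon choice is the classical ESRP target, was lower in pXEN cells by −0.88 (SE 0.18, adjusted p = 0.00446, edgeR) against nESCs and by −0.79 (SE 0.18, adjusted p = 0.00837, edgeR) against pESCs.

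Other splicing factors linked to EMT were called in both directions. Of 20 listed and 17 tested, 2 were higher and 5 lower in pXEN cells against either ESC type, and 3 were higher and 3 lower in pESCs than in nESCs, with medians of −0.10, 0.03 and −0.01. The 29.4% lower against either ESC type lay near the 26.2% and 24.4% of all genes, and the 11.8% higher lay below the 28.3% and 23.9%. In pESCs against nESCs, the 17.6% higher and 17.6% lower lay near the 19.0% and 13.3% of all genes. In the fit without pXEN line 2, 5 were lower in pESCs than in nESCs. RBM47, an RNA-binding protein of epithelial cells, had the pattern of ESRP1, with 362, 439 and 365 counts in pXEN lines, 7 and 0 in nESC lines, and 389 and 427 in pESC lines. Its log2 fold change was 6.89 (SE 0.51, adjusted p = 1.92e-05, edgeR) against nESCs and 0.21 (SE 0.29, adjusted p = 0.582, edgeR) against pESCs. MBNL1 and NOVA1, splicing factors of muscle and neurons, were lower, with log2 fold changes of −1.05 and −2.14 against nESCs and −1.51 and −1.01 against pESCs. PTBP1, the polypyrimidine tract-binding protein found in most cells, was at 406 to 416 FPKM in pXEN lines and 385 to 411 in ESC lines and was not called in any comparison.

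Mesenchymal effector genes were called in both directions. Of 28 tested, 18 were higher and 2 lower in pXEN cells than in nESCs, 11 higher and 8 lower than in pESCs, and 15 higher and 2 lower in pESCs than in nESCs. Without pXEN line 2, the lower genes against nESCs numbered 6 of 27, and those in pESCs against nESCs 4. With all libraries, 53.6% were higher and 7.14% lower in pESCs than in nESCs, beside 19.0% and 13.3% of all genes. In pXEN cells against nESCs, 64.3% were higher and 7.14% lower, beside 28.3% and 26.2% of all genes. Against pESCs, 39.3% were higher and 28.6% lower, beside 23.9% and 24.4%. CDH11 and MMP2, named after their values were seen, were lower in both comparisons, as VIM was. The higher genes included matrix and adhesion genes that endoderm also uses. FN1, which encodes fibronectin, had 242638, 282906 and 244565 counts in pXEN lines, 13144 and 19431 in nESC lines, and 3048 and 3449 in pESC lines. ITGA5, a subunit of the fibronectin receptor, was at 226, 167 and 222 FPKM in pXEN lines, 1.49 and 2.55 in nESC lines, and 27.4 and 26.9 in pESC lines. ITGB3 and MMP14, an integrin subunit and a membrane metalloprotease, rose by log2 fold changes of 8.24 and 6.27 against nESCs and 3.41 and 1.59 against pESCs.

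The cadherins CDH2 and CDH11, chosen after their values were seen, differed from each other. CDH11, a cadherin of mesenchyme, had 182, 283 and 257 counts in pXEN lines, 3514 and 3992 in nESC lines, and 1810 and 1698 in pESC lines. This is the order of ZEB2, with log2 fold changes of −3.84 (SE 0.15, adjusted p = 1.43e-06, edgeR) and −2.59 (SE 0.15, adjusted p = 1.02e-05, edgeR). CDH2, which encodes N-cadherin, was at 81.5 to 109 FPKM in pXEN lines, 97.4 and 123 in nESC lines, and 109 and 96.6 in pESC lines, and was not called in any comparison of all 7 libraries. Without pXEN line 2 it was called lower than in nESCs, by −0.35 (adjusted p = 0.0444, edgeR). S100A4, a calcium-binding protein of motile cells, was highest in pESCs, with 584 and 780 counts there, 43 and 10 in nESC lines, and 4, 22 and 6 in pXEN lines.

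**Figure D5:**
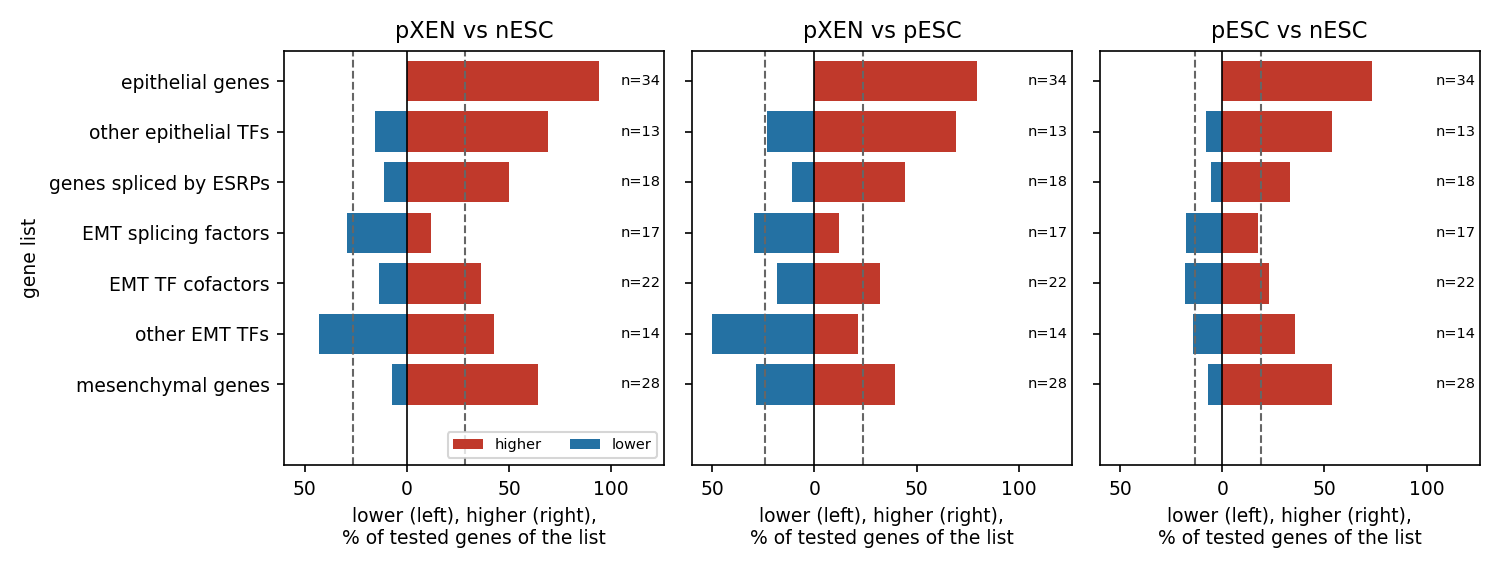
Share of the tested genes of each list called higher (red, to the right) or lower (blue, to the left) by edgeR in the 3 comparisons; n is the number tested and dashed lines are the shares over all genes tested, such as 28.3% higher and 26.2% lower for pXEN cells against nESCs. Epithelial genes and other epithelial factors lie far above the line on the higher side. Splicing factors lie below it on that side in the pXEN comparisons and near it in pESCs against nESCs.

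Of the genes with a symbol and a mean of at least 5 FPKM, those whose log2(FPKM + 1) over the 7 libraries was most like that of each gene were listed, among 7465 genes. For ZEB1 they were RTN1, SEMA5B and SERP2, with Pearson's r of 0.9996 to 0.9985. RTN1 was at 0.0633, 0.0813 and 0.0567 FPKM in pXEN lines and between 13.6 and 15.8 in the ESC lines. For ESRP1 they were PDIA4, RHBDL2 and MNX1 (r of 0.9989 to 0.9982), for TWIST1 CDC25B, CCDC88A and WDR35 (0.9994 to 0.9984), for VIM ERCC4, SNW1 and CETN3 (0.9978 to 0.9959), and for ZEB2 PRR14L, APC2 and LRP4 (0.9973 to 0.9966). These values describe 7 libraries of 3 cell types, so r is set mainly by the 3 group levels.

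ZEB1 and VIM, both low in pXEN cells, lie 1432280 bases apart on chromosome 10. Of the 7 tested genes between them, 2 were higher and 1 lower in pXEN cells than in nESCs, with a median log2 fold change of 0.23, and 0 were higher and 1 lower than in pESCs, with a median of −0.04. The median over all 410 tested genes of the chromosome was −0.07 against nESCs and −0.05 against pESCs.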

How the data were processed

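Strand-directional libraries of rRNA-depleted RNA from 7 porcine cell lines were analysed. The authors deposited raw read counts per gene and FPKM values, in which fragments are scaled by gene length and library total, both on Sscrofa10.2. The submitters' processing notes name HISAT2 2.0.5, featureCounts 1.5.0-p3 and edgeR 3.22.5, and the strand setting of the counting is not given in the sources used here. No column of the authors' own comparisons was used.

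Counts were tested here with edgeR 4.0.16 (TMM, filterByExpr, quasi-likelihood test with a group term over all 7 libraries, Benjamini-Hochberg threshold 0.05) in R 4.3.3, and the code was tested on simulated data. The biological coefficient of variation was 0.223. FPKM served for levels and for comparisons between genes. Count ratios of the genes chosen by name were scaled to TMM-adjusted library sizes and carry exact binomial intervals at 95%. For bounds, 3 counts over a group were the floor, and those of genes from the other lists used library totals. Alternatives used DESeq2 1.42.0, limma 3.58.1 on log2(FPKM + 0.1) or log2(FPKM + 1), other scalings and filters, each pair of groups alone, the replicate number as a block, and each library left out.

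The genes and lists were chosen with earlier results of these data known, so no list was tested as a set. Of 243 listed symbols, 211 were found, 29 of them through the identifier in a reference table of gene names because their row had no or another name. From each list, the 4 genes with the highest mean level and the 3 with the largest called change in either pXEN comparison, at a mean log2 CPM of at least 3, could be named. For each gene of the 10 with a median of at least 10 counts, 3 genes of like pattern were named.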

Additional observations from a re-analysis of the deposited data

How the results depend on the processing

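Over the 5 tested genes, 228 fold changes were recomputed under the alternatives, and 225 kept their direction and their side of the threshold. The exceptions were ESRP1 in pXEN cells against pESCs, given above without either pESC line, and TWIST1, which limma on log2(FPKM + 1) called lower in pESCs than in nESCs (−0.58, adjusted p = 0.0494), giving 2 lower genes there. Requiring 10 counts in each library takes out ZEB1, ZEB2, TWIST1 and ESRP1, which leaves 0 genes higher and 1 lower in pXEN cells against either ESC type and 0 higher and 0 lower in pESCs against nESCs. Under that filter 2771 genes of all were lower in pXEN cells than in pESCs and 2056 higher in pESCs than in nESCs, instead of 4261 and 3308.

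With each library left out in turn, between 0 and 1 of the 5 genes were higher in pXEN cells than in pESCs. Over all genes, 2706 to 4572 were higher in pXEN cells than in pESCs, 2037 to 4213 higher in pESCs than in nESCs, and 928 to 3353 lower, the highest of each without pXEN line 2. With the replicate block, 4447 genes were higher and 3827 lower in pXEN cells than in nESCs, and no call on the 5 genes changed. Deviations of same-numbered libraries from their group means correlated at −0.00892 to 0.0442. With 2 lines in each ESC group, these values cannot show whether same-numbered libraries shared a batch. By counts in place of FPKM, the mean log2 ratio of ZEB1 to ZEB2 in nESCs was −0.94 instead of 0.04, since the ZEB2 model is longer, and the epithelial share in pESCs was 74.6%. Upper-quartile scaling shifted the median of all genes by −0.16 against nESCs, with 4348 genes higher and 5621 lower. With 2 lines in each ESC group, a difference such as that of TWIST1 between ESC types was measured with little precision.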

Other observations

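Cofactors and modifiers of the SNAIL and ZEB repressors were read as a further list. Of 22 tested, 8 were higher and 3 lower in pXEN cells than in nESCs, 7 higher and 4 lower than in pESCs, and 5 higher and 4 lower in pESCs than in nESCs, with medians of 0.05, 0.06 and 0.06 on the log2 scale. The higher shares, 36.4% and 31.8% in the pXEN comparisons, lay near the 28.3% and 23.9% of all genes. The lower shares there were 13.6% and 18.2%, beside 26.2% and 24.4%. In pESCs against nESCs, 22.7% were higher and 18.2% lower, beside 19.0% and 13.3%. Without pXEN line 2, 5 were lower than in nESCs and 6 lower in pESCs than in nESCs. LOXL2, a lysyl oxidase that modifies collagen and can stabilise SNAI1, had 1250, 1083 and 1289 counts in pXEN lines, 20 and 30 in nESC lines, and 250 and 307 in pESC lines. Its log2 fold change was 5.73 (SE 0.25, adjusted p = 1.89e-06, edgeR) against nESCs and 2.41 (SE 0.19, adjusted p = 4.64e-05, edgeR) against pESCs. AJUBA, a LIM protein of adherens junctions, and RCOR1, a subunit of a repressor complex with KDM1A, were also higher in pXEN cells, by 2.06 and 1.27 against nESCs. The repressor subunits HDAC2, EHMT2 and SMARCA4 were not called in any comparison of all 7 libraries, but without pXEN line 2 SMARCA4 was called lower than in nESCs in pXEN cells (−0.22, adjusted p = 0.031, edgeR) and in pESCs (−0.28, adjusted p = 0.0164, edgeR).

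Markers of other embryonic lineages were read in the same libraries. Of 8 trophectoderm markers, 3 were tested and all 3 were higher in pESCs than in nESCs and in pXEN cells, with summed levels of 145 and 128 CPM in pESC lines and at most 5.09 CPM elsewhere. Most of this sum was TFAP2C. Of 9 neural crest markers, 5 were tested, of which 2 were higher and 3 lower in pXEN cells than in nESCs, 1 higher and 2 lower than in pESCs, and 3 higher and 1 lower in pESCs than in nESCs. TFAP2B, a factor of neural crest and ectoderm chosen after its values were seen, had 810 and 932 counts in nESC lines, 1 and 18 in pESC lines, and 21, 31 and 35 in pXEN lines. Of 10 pluripotency markers, 8 were tested, of which 5 were higher and 3 lower in pXEN cells than in nESCs, and 4 higher and 4 lower than in pESCs. Of 14 tested fibroblast markers, 8 were higher and 3 lower in pXEN cells than in nESCs and 4 higher and 5 lower than in pESCs, and 6 were higher and 1 lower in pESCs than in nESCs. Without pXEN line 2, 7 were lower than in pESCs and 9 were higher in pESCs than in nESCs. The shares of all genes for these lists were 28.3% higher and 26.2% lower against nESCs, 23.9% and 24.4% against pESCs, and 19.0% and 13.3% in pESCs against nESCs. The fibroblast markers lower against nESCs, 21.4%, and those higher against pESCs, 28.6%, lay near these shares, and the lists of 3 to 8 tested genes are too short to be read against them. The other fibroblast shares were 57.1% higher against nESCs and 35.7% lower against pESCs. In pESCs against nESCs they were 42.9% higher and 7.14% lower. Hosts of the miR-200 and miR-205 microRNAs, which repress ZEB1 and ZEB2, had no row under their symbols and were not analysed here.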
